A study of Mus musculus with 2 samples.

Results

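The genes described here are the 38 protein-coding genes of mouse that encode SR proteins (11 Srsf genes), hnRNPs (20 Hnrnp genes), the SR-like proteins Tra2a and Tra2b, the CDC-like kinases Clk1 to Clk4, and Rbm39. They were chosen by gene symbol and annotated gene type among the 16674 annotated genes that had a read. Adrenal glands of C57BL/6J mice from The Jackson Laboratory gave the total RNA, and transcript models were counted by long-read RNA-seq in 2 biological replicates of a single group. No treatment and no age are recorded for the replicates, and their descriptions name females while the sex field holds no record. In long-read RNA-seq a single read can show which exons of a transcript were joined. With 1 group there is no comparison of conditions: replicate 2 was set against replicate 1, and every test below compares the reads of these libraries, with no replicate check.

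SR proteins bind exonic enhancers and help the spliceosome to define exons, while hnRNPs coat nascent RNA and often repress splice sites. CLK kinases phosphorylate the serine- and arginine-rich domains of SR proteins. Many of these genes limit their own protein through poison exons, which carry an early stop codon and send the transcript to nonsense-mediated decay, or through introns that stay in the transcript.

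Replicate 2 held 587861 reads and replicate 1 held 810239. The 3 reads that a count of 0 allows stood for 5.10 CPM (counts scaled to library size) in replicate 2 and 3.70 CPM in replicate 1. The library preparation is not named in the sources used here, and amplified reads would not be independent molecules. The intervals and floors below therefore stand for counting error alone. The libraries differed in the length of what they captured: the median annotated model length per read was 3052 nt in replicate 2 and 1648 nt in replicate 1. Over the 9809 genes tested, 66.2% were called different between the libraries at an adjusted p of 0.05. Cortex markers (6 of 6 detected) held 9.09% of replicate 2 reads and 7.73% of replicate 1 reads, and chromaffin markers (5 of 5) held 0.850% and 0.619% in the same order. Of other tissues, none of 4 kidney markers was detected, and liver markers took 0 and 0.000247%. Erythroid markers stood at 0.0170% in replicate 2 and at 0.137% in replicate 1, macrophage markers 0.0201% and 0.114%, adipocyte markers 0.00357% and 0.0194%, and endothelial markers 0.0600% and 0.0185%. The median log2 ratio of replicate 2 over replicate 1 was -3.42 for erythroid, -3.50 for macrophage, -4.04 for adipocyte and 1.79 for endothelial markers. Against the trend of that ratio with model length, described below, these medians were 0.79, -0.28, -0.91 and 0.71 in the same order. The part of length in these shares was not tested. The part of these cells in the results below was not tested, and in bulk tissue fewer cells of a type and less RNA per cell cannot be told apart.

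The sequences on which the results turn are shown first, as bases of the GENCODE M21 transcripts on GRCm38 (mm10), each read 5′ to 3′ on the strand of its gene. The first set holds the start of each coding-region intron retained in at least 20% of reads in both libraries or that differed between them. It runs from the first base of the intron to the first stop codon in the frame of the coding exon before it, and the stop codon is in capitals.
Clk1 intron 3, chr1:58421077-58421082, minus strand: gtaTGA
Clk1 intron 4, chr1:58420059-58420120, minus strand: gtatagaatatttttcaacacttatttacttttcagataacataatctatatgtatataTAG
Clk4 intron 3, chr11:51272023-51272028, plus strand: gtaTGA
Clk4 intron 4, chr11:51273169-51273248, plus strand: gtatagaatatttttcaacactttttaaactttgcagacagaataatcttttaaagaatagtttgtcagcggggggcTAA
Srsf5 intron 5, chr12:80947866-80947874, plus strand: gtttgtTGA
Srsf3 intron 3, chr17:29038625-29038673, plus strand: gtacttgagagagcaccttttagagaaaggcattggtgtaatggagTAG
Srsf7 intron 3, chr17:80205174-80205261, minus strand: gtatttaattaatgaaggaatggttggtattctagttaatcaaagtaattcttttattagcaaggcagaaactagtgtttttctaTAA
Srsf1 intron 3, chr11:88049216-88049269, plus strand: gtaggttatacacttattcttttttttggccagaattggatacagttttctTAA

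Clk1 and Clk4 are paralogs on different chromosomes. In both, retention of intron 3 placed a stop codon at bases 4 to 6 of the intron, and their introns 4 shared the first 23 bases. A stop fell within the first 9 bases of Srsf5 intron 5. The second set holds the exons that GENCODE places only in non-coding or nonsense-mediated decay transcripts and that at least 5% of reads included in a library, from their first base through the first stop codon in frame, again in capitals. Exons without such a stop are not shown. The Srsf6 stretch also lies within an exon of 165 nt with the same start, which occurs in a protein-coding transcript.
Srsf3 exon of 456 nt, chr17:29039454-29039487, plus strand: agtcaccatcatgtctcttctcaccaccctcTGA
Srsf6 exon of 268 nt, chr2:162932815-162932966, plus strand: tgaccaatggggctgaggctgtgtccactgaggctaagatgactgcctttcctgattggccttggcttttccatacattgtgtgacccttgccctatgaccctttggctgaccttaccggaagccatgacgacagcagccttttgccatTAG
Rbm39 exon of 72 nt, chr2:156174126-156174168, minus strand: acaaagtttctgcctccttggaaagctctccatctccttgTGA
Rbm39 exon of 73 nt, chr2:156178881-156178952, minus strand: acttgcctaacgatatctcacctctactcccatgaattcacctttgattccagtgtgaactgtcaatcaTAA
Hnrnpll exon of 83 nt, chr17:80044976-80045022, minus strand: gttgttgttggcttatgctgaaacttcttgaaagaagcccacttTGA

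Together the 38 genes took 4112 reads, 0.699% of all reads, in replicate 2 and 2814 reads, 0.347%, in replicate 1, a mean of 0.523 ± 0.249% (SD, n = 2). A read was found for 37 genes in each library. Hnrnpa0 had 0 reads in replicate 2, which allows up to 5.10 CPM, and Srsf12 had 0 reads in replicate 1, which allows up to 3.70 CPM. The 20 hnRNP genes held 0.415% of replicate 2 reads and 0.166% of replicate 1 reads, and the 11 SR genes 0.189% and 0.133%. Of the 1077 SR reads in replicate 1, 355 were unspliced Srsf2 reads of uncertain assignment, described below. Levels below are CPM, reads of a gene over all reads of the library. They are not divided by length, on the untested assumption that 1 long read stands for 1 transcript.

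**Figure D1:**
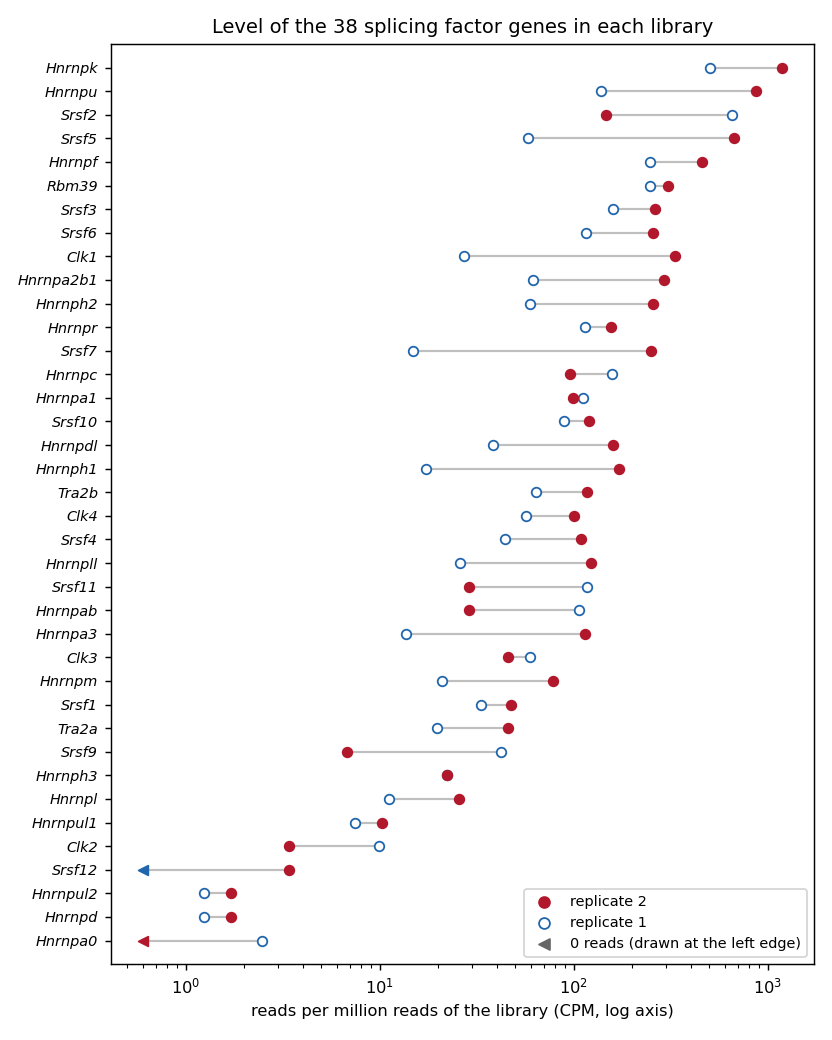
Level of each of the 38 genes in each library, in CPM on a log axis, ordered by the mean of both libraries. Filled points are replicate 2, open points replicate 1, and triangles mark genes with 0 reads. Hnrnpk stands at the top in replicate 2 and Srsf2 in replicate 1, where 355 of the 531 Srsf2 reads were unspliced and of uncertain assignment.

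Hnrnpk, a poly(C)-binding hnRNP with KH domains, was the highest by mean level, with 1189 CPM in replicate 2 and 506 CPM in replicate 1 (mean 848 ± 483, SD, n = 2). It stood at rank 103 of all genes. Hnrnpu, a large nuclear scaffold protein, followed with 873 CPM in replicate 2 and 138 CPM in replicate 1 (505 ± 519). Srsf2, an SR protein that stays in the nucleus, had 146 CPM in replicate 2 and 655 CPM in replicate 1 (401 ± 360), so that the order of these genes was not the same in both libraries. Of the 531 Srsf2 reads in replicate 1, 355 were unspliced and their assignment is uncertain, as described below. With models of at least 2 exons only, replicate 1 had 176 reads for Srsf2, 405 for Hnrnpk and 107 for Hnrnpu. Srsf5, another SR protein, had 667 CPM in replicate 2 and 58.0 CPM in replicate 1 (362 ± 430). Hnrnpf, which binds G-rich sequences, had 456 and 246 CPM in replicates 2 and 1 (351 ± 149). Rbm39, an SR-related factor, had 306 and 246 CPM (276 ± 42.8), and Srsf3, the smallest SR protein, had 262 and 159 CPM (211 ± 72.7), again with replicate 2 first. Among the 10 highest, the SD was smallest relative to the mean in Rbm39, Srsf3 and Hnrnpf. The spread was as wide as the mean or wider for Hnrnpu, Srsf5 and the kinase gene Clk1 (332 CPM in replicate 2, 27.2 CPM in replicate 1).

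At the low end, 4 members had fewer than 10 reads over both libraries and were not tested: Srsf12, Hnrnpd, Hnrnpul2 and Hnrnpa0. Hnrnpd, also known as AUF1, had 1 read in each library, while its paralog Hnrnpdl had 94 reads in replicate 2 and 31 in replicate 1.

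Between the libraries, 15 of the 34 tested members were called higher in replicate 2, 7 were called lower and 12 were not called, by an exact binomial test adjusted over all genes (Benjamini-Hochberg). Of all 9809 genes, 30.6% were called higher and 35.6% lower. The median log2 ratio of replicate 2 over replicate 1 was 0.41 over the members and -0.01 over all genes. Scaling by total reads in place of TMM moved the median of all genes to 0.46. By family, 10 of 17 hnRNP genes were called higher and 3 lower, and 4 of 10 SR genes higher and 3 lower.

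Srsf7, an SR protein with a zinc knuckle, had the largest called ratio. It had 146 reads in replicate 2 and 12 in replicate 1, a log2 ratio of 3.54 (12.1-fold, 95% interval 6.72 to 24.0). Clk1 had 195 reads in replicate 2 and 22 in replicate 1 (log2 ratio 3.11, 8.81-fold, 5.66 to 14.4). Srsf5 had 392 reads in replicate 2 and 47 in replicate 1 (log2 ratio 3.04, 8.29-fold, 6.12 to 11.5). Hnrnph1, which binds G-runs, had 101 reads in replicate 2 and 14 in replicate 1 (log2 ratio 2.80). Hnrnpa3 had 67 and 11 reads in replicates 2 and 1 (log2 ratio 2.55), though 7 of the 11 were unspliced. These genes were all higher in replicate 2, with intervals of the fold above 1.

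In the other direction, Srsf9 had 4 reads in replicate 2 and 34 in replicate 1 (log2 ratio -2.95), Srsf11 had 17 and 95 (log2 ratio -2.46), and Hnrnpab had 17 and 86 (log2 ratio -2.31). Srsf2 had 86 reads in replicate 2 and 531 in replicate 1, a log2 ratio of -2.63. Of the replicate 1 reads, 355 were unspliced and lay wholly in the last exon of Srsf2 (chr11:116849901-116850961, 1061 nt), within its 3′ UTR, where replicate 2 had 0 such reads. Mettl23 lies across Srsf2 on the opposite strand, and unspliced Mettl23 models over the same exon had 2 reads in replicate 2 and 410 in replicate 1. Unspliced reads of these opposing genes cannot be told apart by splice sites. With models of at least 2 exons only, Srsf2 had 80 reads in replicate 2 and 176 in replicate 1, a log2 ratio of -1.42.

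**Figure D2:**
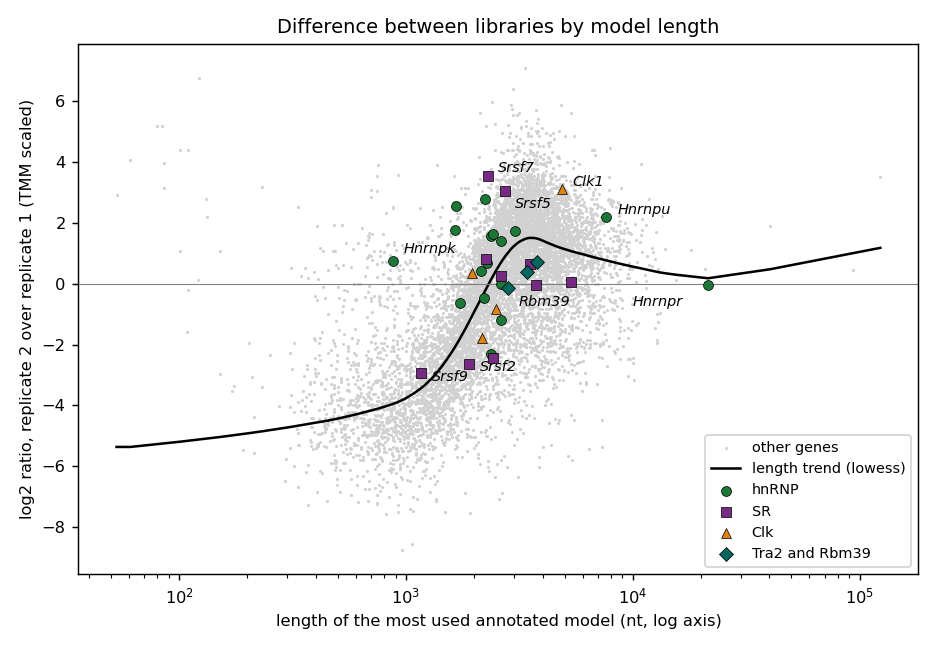
Log2 ratio of replicate 2 over replicate 1 for each gene (TMM scaled) against the length of its most used annotated model on a log axis. Grey points are other genes, the black line is the lowess trend over genes with at least 20 reads, and coloured points are the splicing factor genes by family. The trend lies below 0 for short models and above 0 for long ones, and the splicing factor genes lie on both sides of it.

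Because long models were favoured in replicate 2, each member was also set against the trend of the ratio with model length. On that scale 14 of 34 members were called higher, 11 lower and 9 were not called. Of 9173 genes, 42.4% were called, 21.3% higher and 21.1% lower. Of 19 members called both ways, 17 kept their direction. Hnrnpa1 and Srsf6 turned with a call both ways: the log2 ratio of Hnrnpa1 was -0.64 as measured and 1.14 against the trend, and that of Srsf6 was 0.66 and -0.85. Against the trend Srsf7 stood at 3.62, Srsf5 at 2.16, Clk1 at 1.94 and Hnrnpu at 1.41, all called higher. Srsf2 stood at -1.39, Srsf11 at -2.70 and Hnrnpab at -2.45, all called lower. With the read-weighted mean length of all models of a gene in place of the most used one, Hnrnpab was still called lower (-1.14), but Srsf2 (0.0961, adjusted p = 0.771 by the binomial test) and Srsf11 (0.0531, adjusted p = 0.989) changed sign and were not called. Srsf9, whose model has 1162 nt, stood at 0.49 and was not called. Hnrnpk counts among those called higher, but its value is not given, since the annotated model that set its length, of 874 nt, held 1 read in each library. For hnRNP genes the median against the trend was 0.89, with 9 of 17 called higher and 2 lower, and for SR genes it was -0.65, with 3 of 10 called higher and 6 lower. The hnRNP median and count include Hnrnpk. With the read-weighted mean length it was called lower (-0.27, adjusted p = 0.0127 by the binomial test).

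The 4 most read chains of exons of Hnrnpk, none of them annotated as a whole, held 585 of 699 reads (83.7%) in replicate 2 and 340 of 410 (82.9%) in replicate 1. Each lacked an exon of 16 nt that all 8 annotated protein-coding transcripts across this site contain. In its place the neighbouring upstream exon ran on for 16 nt into the intron, in 653 of 692 reads (94.4%, 95% interval 92.4 to 96.0) in replicate 2 and in 382 of 401 (95.3%, 92.7 to 97.1) in replicate 1. The annotated exon was joined in 4 reads in replicate 2 and in 0 reads in replicate 1. Both stretches are shown here because they are of equal length, share the base at 8 of 16 positions, and are each followed by gt.
Hnrnpk annotated short exon, chr13:58393853-58393868, minus strand: ggtggttctggatatg
Hnrnpk extension of the neighbouring exon, chr13:58394060-58394075, minus strand: gttgagtatcaataat
Whether the reads carry the bases of the exon or of the extension was not tested, since reads were not used here. Hnrnpk reads also differed in their first exon and in 2 acceptors that lie 60 nt apart. The more used first exon was in 74.1% of 671 reads in replicate 2 and in 80.3% of 380 in replicate 1. The downstream acceptor was used in 45.0% of reads (41.3 to 48.8) in replicate 2 and in 51% (46.0 to 56.0) in replicate 1. Reads with the more used first exon took it in 44.3% in replicate 2 and 49.8% in replicate 1, and reads with the other first exon in 47.7% and 52.0%. The intervals of these shares overlapped within each library, so no tie between the first exon and the acceptor was detectable at this depth.

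Part of the reads of the splicing factor genes fell on annotated transcripts that are not of the protein-coding type. Of their annotated reads, 292 of 2114 (13.8%, 12.4 to 15.4) in replicate 2 and 207 of 1362 (15.2%, 13.3 to 17.2) in replicate 1 fell on retained intron, nonsense-mediated decay or other non-coding transcripts (mean 14.5 ± 0.980%, SD, n = 2). Over all other protein-coding genes the share was 2.14% in replicate 2 and 1.78% in replicate 1. Clk1 gave a large part of it in replicate 2, and Rbm39 in replicate 1. Without Clk1 alone the members stood at 7.36% in replicate 2 and 14.8% in replicate 1, and without Rbm39 alone at 14.1% and 10.4%. Without both they stood at 7.27% (6.12 to 8.55) in replicate 2 and 9.94% (8.33 to 11.7) in replicate 1, still above the other genes in both. Retained intron transcripts took 11.9% of annotated reads of the members in replicate 2 and 11.8% in replicate 1, and nonsense-mediated decay transcripts 1.75% and 2.50%. Among the 23 members with 10 annotated reads in each library, the median share was 4.44% in replicate 2 and 6.41% in replicate 1, where the median of 2987 genes was 0 in both. Hnrnpu, Hnrnpf, Hnrnph2, Hnrnpc, Hnrnpab and Srsf4 had 0 such reads in both libraries. Unannotated chains are outside this share. In Srsf4 a chain of 9 exons, beside 6 in its main coding transcript, had 8 of 64 reads in replicate 2 and 0 of 36 in replicate 1. Shares above the median of all genes were not limited to the members. Among the lists described below, 5 tested SR kinases and SR-related genes had a median of 13.3% in replicate 2 and 3.45% in replicate 1. For 11 other splicing regulators the median was 2.94% and 6.52%, in the same order. The median of 10 core spliceosome genes was lower than that of the members in both libraries.

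**Figure D3:**
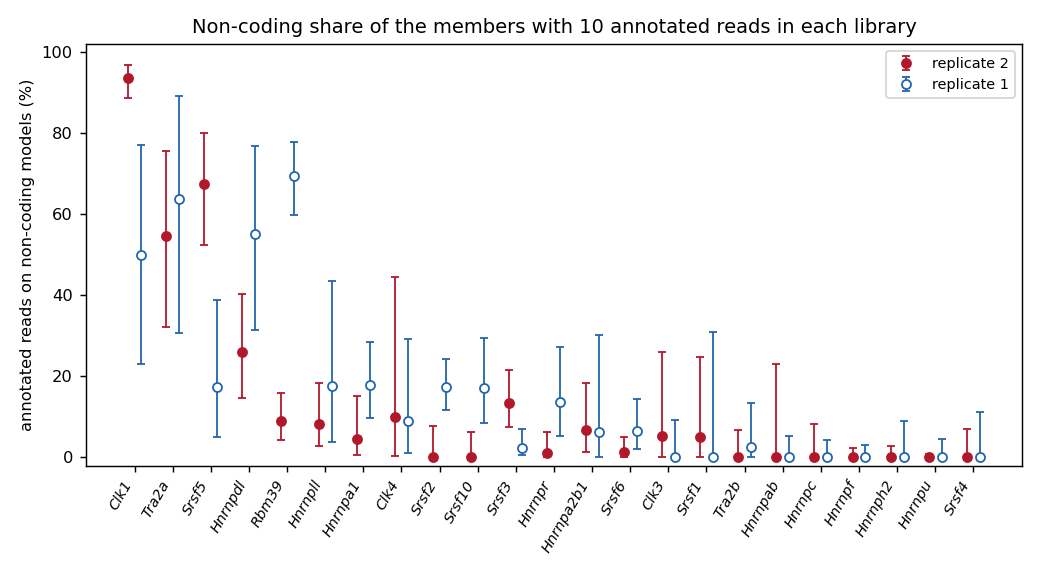
Share of annotated reads on non-coding transcripts, in percent, for the 23 members with at least 10 annotated reads in each library. Points are the share, filled for replicate 2 and open for replicate 1, and bars are 95% Clopper-Pearson intervals. Clk1 and Srsf5 stand higher in replicate 2, and Rbm39 in replicate 1, with no overlap of intervals.

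The share differed between libraries in 5 of these 23 members by Fisher's exact test, with 2 higher and 3 lower in replicate 2, against 3.58% of all genes (1.74% higher and 1.84% lower). Clk1 had 148 of 158 annotated reads (93.7%) on non-coding transcripts in replicate 2 and 7 of 14 (50%) in replicate 1. For Srsf5 it was 33 of 49 (67.3%) in replicate 2 and 4 of 23 (17.4%) in replicate 1. Both were higher in replicate 2. Rbm39 went the other way, with 10 of 112 (8.93%) in replicate 2 and 77 of 111 (69.4%) in replicate 1. So did Srsf2, with 0 of 45 and 27 of 156 (17.3%), and Srsf10, with 0 of 56 and 10 of 58 (17.2%), replicate 2 first. This share counts annotated models alone, which held 51.4% of member reads in replicate 2 and 48.4% in replicate 1. It leaves out unannotated chains, among them the leading chains of Srsf5 and Clk4 that retain introns, described below. Clk4 stood at 10% in replicate 2 and 9.09% in replicate 1 on this share. Incomplete matches are left out as well, among them an Srsf2 chain of 2953 nt that retains intron 2. That chain had 28 reads in replicate 2 and 4 in replicate 1. Retention of the intron over all chains, given below, went the other way, with 40.0% in replicate 2 and 18.3% in replicate 1, which was not called. For 0 of 45 reads the upper limit of the interval was 7.87%, and for 0 of 56 it was 6.38%. Tra2a had 12 of 22 (54.5%) in replicate 2 and 7 of 11 (63.6%) in replicate 1, all on a single-exon annotated retained intron transcript of 3788 nt. Hnrnpdl had 13 of 50 (26.0%) in replicate 2 and 11 of 20 (55.0%) in replicate 1, which was not called (adjusted p = 0.432).

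Rbm39 reads differed between the libraries in where they ended. Reads that ended nearer to the 5′ end than to the 3′ end of the gene were 20 of 180 (11.1%, 6.92 to 16.6) in replicate 2 and 147 of 199 (73.9%, 67.2 to 79.8) in replicate 1. This was not limited to Rbm39. The share was also lower in replicate 2, with separate intervals, in Srsf10 (4.29% and 26.4%), Hnrnpu (4.29% and 18.8%) and Srsf5 (0 and 8.51%), replicate 2 first. No member was higher in replicate 2 with separate intervals. Among the Rbm39 reads the difference was the widest of these. In replicate 1 the Rbm39 reads that ended early lay mainly on the 2-exon transcript Rbm39-205 of 1008 nt (3 reads in replicate 2, 40 in replicate 1), on Rbm39-211 (0 and 28 reads) and on an incomplete chain of 3 exons (1 and 39 reads). The coding transcripts of 2810 and 2711 nt, which span the gene, had 58 and 44 reads in replicate 2 and 18 and 16 in replicate 1. Rbm39 as a whole was not called (180 and 199 reads, log2 ratio -0.15, adjusted p = 0.365 by the binomial test). The call depended on scaling and length: Rbm39 was called higher with total counts (log2 ratio 0.32), lower with models of at least 2 exons only (-0.46), lower against the length trend (-1.17) and higher with the read-weighted mean length (1.12). Its gene-spanning coding transcripts had more reads in replicate 2.

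Read chains of exons gave the retention of single introns without regard to transcript type. Of the 189 introns in 25 members that could be scored, 13 in 10 genes were retained in at least 10% of reads in replicate 2, and 12 in 8 genes in replicate 1. That was 6.88% of member introns in replicate 2 and 6.35% in replicate 1, beside 3.67% and 1.00% of 32954 introns over all genes. Outside these introns the genes were spliced almost fully, as the plot of retention along 6 genes shows. Over all genes, 1.19% of introns were called, 1.14% as more retained in replicate 2 and 0.0486% as less retained. The 7 member introns called by Fisher's exact test were all more retained in replicate 2, the library that favoured long models, and a model that retains an intron is longer than its spliced form. The part of length in these differences was not tested.

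**Figure D4:**
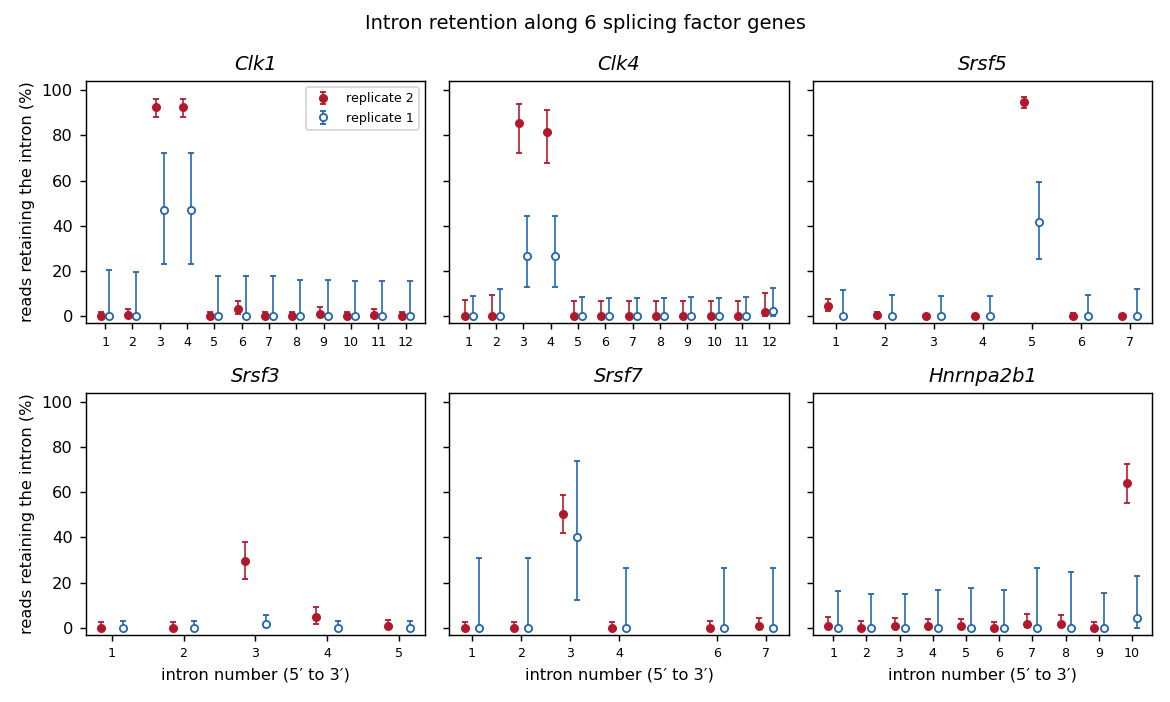
Percent of reads that retain each intron, numbered 5′ to 3′ in the most used coding transcript, in 6 genes. Filled points are replicate 2, open points replicate 1, bars are 95% Clopper-Pearson intervals, and introns with under 10 informative reads in a library are not drawn. Among the introns drawn, retention is limited to 1 or 2 of each gene and is 0 or near 0 in the rest.

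Clk1, a kinase of SR proteins, retained intron 3 (871 nt) in 176 of 190 reads (92.6%, 87.9 to 95.9) in replicate 2 and in 8 of 17 (47.1%, 23.0 to 72.2) in replicate 1, a difference with an adjusted p of 0.0011. Its other 10 introns were retained in at most 3.19% of reads in replicate 2 and in 0 reads in replicate 1. Intron 4 (387 nt) was retained together with intron 3 in nearly all reads that held either: both were retained in 174 reads in replicate 2 and 8 in replicate 1, both were spliced in 13 and 9 reads, and 1 without the other in 2 of 189 reads in replicate 2 and 0 of 17 in replicate 1. The annotated transcript of this form, Clk1-212 (4865 nt), had 141 reads in replicate 2 and 7 in replicate 1, and the coding Clk1-201 (1796 nt) had 10 and 7. The higher count of Clk1 in replicate 2 lay on the intron-containing form, while the coding form had similar counts in both.

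Clk4 had the same pair of introns. Intron 3 (1055 nt) was retained in 41 of 48 reads (85.4%, 72.2 to 93.9) in replicate 2 and in 9 of 34 (26.5%, 12.9 to 44.4) in replicate 1 (adjusted p = 1.67e-05). Introns 3 and 4 were both retained in 40 reads in replicate 2 and 9 in replicate 1, and both spliced in 7 and 25, with 1 read of any other kind, in replicate 2. The most read chain of Clk4 retained both introns, had 27 reads in replicate 2 and 5 in replicate 1, and is not in GENCODE M21 as a whole, although its 10 junctions are. Coding Clk4-201 had 6 reads in replicate 2 and 18 in replicate 1. Clk3, with 12 introns scored, retained none above 4% in replicate 2 and 2.13% in replicate 1.

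**Figure D5:**
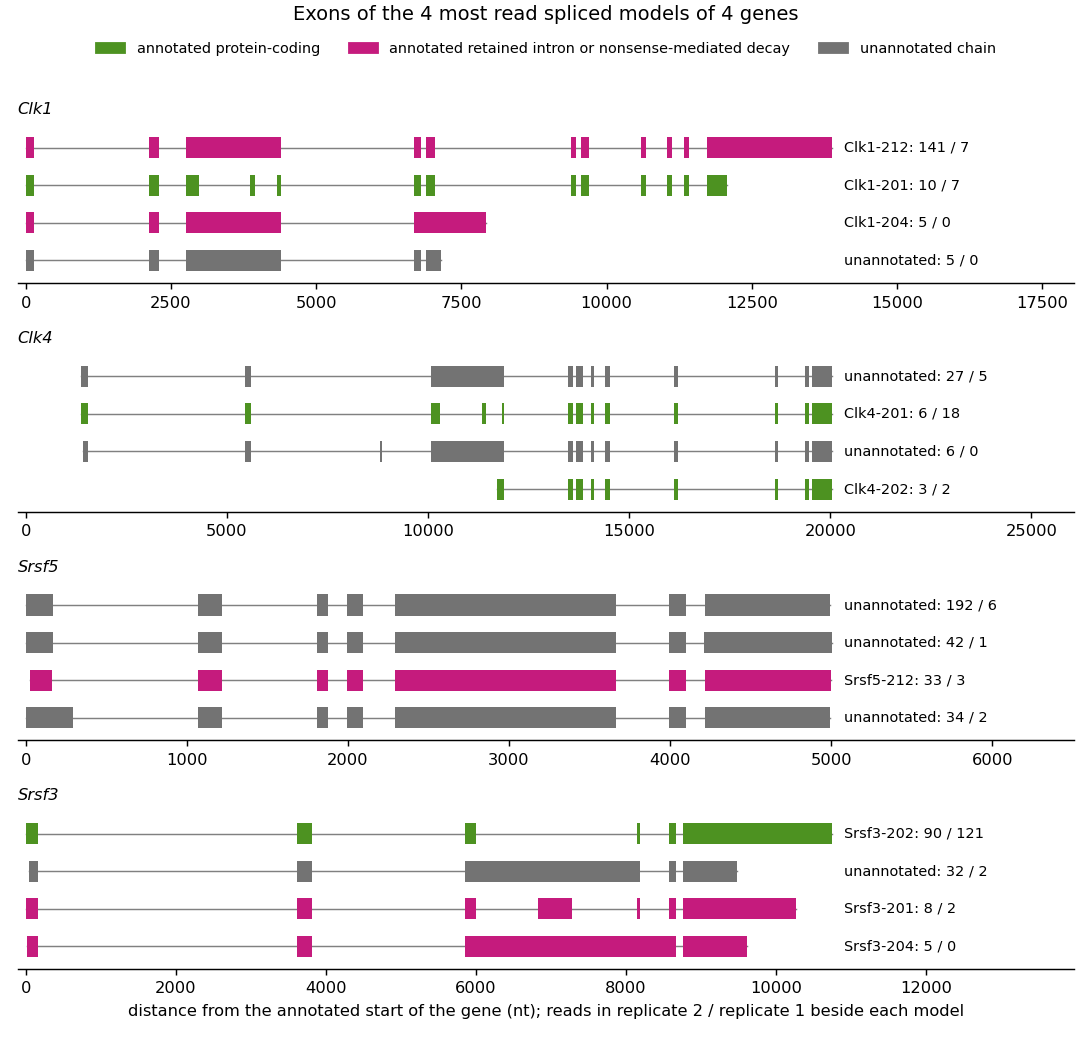
Exons of the 4 most read spliced models of Clk1, Clk4, Srsf5 and Srsf3, drawn to scale by distance from the annotated start of the gene in nt. Green boxes are annotated protein-coding models, magenta boxes annotated retained intron or nonsense-mediated decay models, and grey boxes unannotated chains, with reads in replicate 2 and then replicate 1 beside each. Retained introns appear as 1 wide exon, in the top model of Clk1, Clk4 and Srsf5 and in the next model of Srsf3.

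Srsf5 retained intron 5 (1229 nt) in 347 of 366 reads (94.8%, 92.0 to 96.8) in replicate 2 and in 15 of 36 (41.7%, 25.5 to 59.2) in replicate 1 (adjusted p = 4.16e-12). All other introns of the gene were retained in at most 4.59% of reads. The leading chain, with 192 reads in replicate 2 and 6 in replicate 1, is not annotated as a whole, but its 6 junctions are, and the annotated retained intron transcript Srsf5-212 had 33 and 3 reads. Srsf5 also used acceptors 3 nt apart, the less used one in 74 of 385 reads (19.2%) in replicate 2 and in 6 of 35 (17.1%) in replicate 1.

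In Srsf3 a retained intron and a poison exon share a place. Intron 3 (2150 nt) was retained in 38 of 129 reads (29.5%, 21.8 to 38.1) in replicate 2 and in 2 of 125 (1.60%, 0.194 to 5.66) in replicate 1 (adjusted p = 3.83e-08). The poison exon of 456 nt inside the same intron was included in 10 of 101 informative reads (9.90%, 4.85 to 17.5) in replicate 2 and in 2 of 125 (1.60%) in replicate 1, which was not called after adjustment (raw p = 0.00681 by Fisher's exact test, adjusted p = 1). Fully spliced Srsf3-202 had 90 reads in replicate 2 and 121 in replicate 1.

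Among the remaining SR genes, Srsf7 retained intron 3 (874 nt) in 70 of 139 reads (50.4%) in replicate 2 and in 4 of 10 (40.0%) in replicate 1, with wide overlap of intervals (41.8 to 58.9 and 12.2 to 73.8). Srsf1, the founding SR protein, retained intron 3 (196 nt) in 6 of 25 reads (24.0%) in replicate 2 and in 11 of 22 (50%) in replicate 1, which was not called. Srsf2 retained intron 2 (1059 nt), which lies in its 3′ UTR, in 30 of 75 reads (40.0%) in replicate 2 and in 31 of 169 (18.3%) in replicate 1 (adjusted p = 0.0542). With single-exon models counted it passed the threshold, at an adjusted p of 0.0379. Srsf4, Srsf6 and Srsf10 had 0 reads that retained any of their scored introns, 5 in each gene.

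Among hnRNP genes, 3 had an intron retained in at least 10% of reads in a library. Hnrnpa2b1, which encodes the A2 and B1 proteins, retained intron 10 (156 nt), in the 3′ UTR, in 84 of 131 reads (64.1%, 55.3 to 72.3) in replicate 2 and in 1 of 22 (4.55%, 0.115 to 22.8) in replicate 1 (adjusted p = 1.76e-05). A chain that retains it, of 3506 nt, had 33 reads in replicate 2 and 0 in replicate 1. Hnrnpdl retained intron 6 in 17 of 92 reads (18.5%) in replicate 2 and in 4 of 25 (16.0%) in replicate 1, a near-equal share. Hnrnph1 retained introns 4, 5 and 11 in 4.76% to 14.1% of reads in replicate 2 and in 10% to 14.3% in replicate 1, where each share rests on 1 or 2 reads. Hnrnpc, Hnrnpf and Hnrnph2 had 0 reads that retained any scored intron.

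None of the 48 exons scored in 21 members was called by Fisher's exact test, beside 0.0922% of 4338 exons over all genes, and 2 had a raw p under 0.05. Of the 48, 9 exons in 7 genes (18.8%) occur in GENCODE only in non-coding or nonsense-mediated decay transcripts, beside 6.34% of all exons scored. The poison exons of Rbm39 were included in 18 of 149 reads (12.1%) in replicate 2 and 5 of 58 (8.62%) in replicate 1 for the exon of 72 nt, and in 14 of 135 (10.4%) and 13 of 107 (12.1%) for that of 73 nt. That of Hnrnpll, a regulator of CD45 splicing in lymphocytes, was included in 8 of 65 (12.3%) in replicate 2 and 2 of 19 (10.5%) in replicate 1. For Srsf6 it was 2 of 139 (1.44%) and 5 of 79 (6.33%), in the same order. Clk4 included an exon of 59 nt in 6 of 44 reads (13.6%) in replicate 2 and 6 of 35 (17.1%) in replicate 1. A 3′ UTR exon of Hnrnpdl of 105 nt was in 13 of 23 reads (56.5%) in replicate 2 and 11 of 19 (57.9%) in replicate 1. Tra2b, whose long poison exon of 397 nt limits its own level, included it in 1 of 59 reads (1.69%) in replicate 2 and in 0 of 39 in replicate 1.

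Coding exons set the protein form of several hnRNPs. The exon of 36 nt that makes B1 out of A2, shown here as the bases that set the proteins apart, was included in 8 of 123 reads (6.50%, 2.85 to 12.4) in replicate 2 and in 1 of 22 (4.55%) in replicate 1, so that A2 was the main form in both.
Hnrnpa2b1 B1 exon, chr6:51467391-51467426, minus strand: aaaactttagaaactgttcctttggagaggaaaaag
Hnrnpc makes C1 and C2, which differ by the 39 bases added when a downstream donor is used.
Hnrnpc C2 bases, chr14:52081789-52081827, minus strand: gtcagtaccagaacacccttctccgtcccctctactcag
They were present in 14 of 55 reads (25.5%, 14.7 to 39.0) in replicate 2 and in 25 of 119 (21%, 14.1 to 29.4) in replicate 1. C1 was thus the main form in both libraries. Hnrnpa2b1 included a coding exon of 120 nt in 113 of 128 reads (88.3%) in replicate 2 and 12 of 21 (57.1%) in replicate 1 (raw p = 0.0014 by Fisher's exact test, adjusted p = 0.554). Hnrnpa1, an abundant repressor of exon definition, included its alternative exon of 159 nt in 15 of 55 reads (27.3%) in replicate 2 and 13 of 81 (16.0%) in replicate 1. Hnrnpab included that of 141 nt in 8 of 16 (50%) and 27 of 73 (37.0%), with overlapping intervals. Exons upstream of the start codon were alternative in Hnrnpr (2 forms of 169 and 166 nt, together in 55 of 89 reads, 61.8%, and 46 of 78, 59.0%), Hnrnph2 (45 nt, 36.5% and 29.5%) and Hnrnpc (26 nt, 76.5% and 85.5%), replicate 2 first. Srsf7 included its coding exon of 36 nt in 123 of 145 reads (84.8%) in replicate 2 and 12 of 12 in replicate 1.

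Whole transcripts were compared by the share of the most read model, which was called in 9 of 30 members, beside 28.7% of 4733 genes, a share near that of the members. It was higher in replicate 2 in 7 of the 9 and lower in 2, beside 15.6% of all genes higher and 13.1% lower. Hnrnpu-201, of 7640 nt, took 439 of 513 reads (85.6%) in replicate 2 and 79 of 112 (70.5%) in replicate 1, and the main coding transcript of Srsf6, of 3527 nt, took 137 of 150 (91.3%) and 73 of 94 (77.7%). By structure, 28.4% of member reads in replicate 2 and 11.8% in replicate 1 were known splice sites in a combination that is not annotated, beside 6.74% and 3.10% over all protein-coding genes. Of the 1168 such reads in replicate 2, 192 lay on the leading Srsf5 chain and 185 on a single Hnrnpk chain with the 16-nt extension. Of the 331 in replicate 1, these chains held 6 and 132. Other Hnrnpk chains with the extension had 244 and 86 reads in replicate 2 and 136 and 34 in replicate 1. They carried both this class and that of an unannotated splice site, so the same chain was not always classed alike. The part of this in the difference between libraries was not tested. Incomplete matches to an annotated transcript took 10.5% of member reads in replicate 2 and 28.8% in replicate 1, beside 10.9% and 10.8% over all. Of the 810 member reads of this class in replicate 1, 355 were the unspliced reads in the last exon of Srsf2, whose assignment is uncertain.

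Other genes of the pathway were read from lists. Of 15 tested SR kinases and SR-related genes, 3 were called higher in replicate 2, 4 lower and 8 were not called, with a median log2 ratio of 0.27. Against the length trend 3 of 14 were called higher, 7 lower and 4 were not called, and the median was -0.64. Son and Srrm2, large scaffold proteins of nuclear speckles, had 49 and 38 reads in replicate 2 and 343 and 454 in replicate 1 (log2 ratios -2.80 and -3.57). Among 26 other splicing regulators, 12 were called higher and 5 lower (11 and 7 of 26 against the length trend), with Ptbp1, the polypyrimidine tract-binding protein, at 193 reads in replicate 2 and 30 in replicate 1 (log2 ratio 2.66). For 28 core spliceosome genes it was 7 higher and 16 lower, with a median log2 ratio of -1.69. Against the length trend it was 4 higher, 7 lower and 16 not called of 27, with a median of -0.26. Of 14 nonsense-mediated decay factors 2 were called higher and 5 lower, and 1 and 3 of 10 against the length trend.

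Genome overlaps bear on some counts. Hnrnpu overlaps Cox20 on the opposite strand (7 reads in replicate 2, 222 in replicate 1), and Hnrnpm overlaps March2 on its own strand (8 and 186 reads), so reads within the shared stretches may be assigned to either gene. Processed pseudogenes of hnRNP genes and the close paralogs among the members leave the split of their reads uncertain to an extent that was not tested.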

How the data were processed

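Adrenal RNA was measured by long-read RNA-seq in 2 libraries of 1 group. Per the file headers and the labels, the authors deposited raw counts of reads for each transcript model, from TALON with GENCODE M21 on mm10. The sources used here do not name the aligner, the platform or the library preparation. Counts were summed by gene and given as CPM. Genes with at least 10 reads over both libraries were compared by two-sided exact binomial tests, with TMM scaling (edgeR 4.0.16) and p-values adjusted over all genes (Benjamini-Hochberg, threshold 0.05). Log2 ratios used a pseudocount of 0.5 reads. The length trend was a lowess curve (span 0.3) of the log2 ratio on model length. Non-coding shares, model use, cassette exons and introns were compared by two-sided Fisher's exact tests where each library had at least 10 informative reads. An intron was retained where an exon of a multi-exon model ran 10 nt or more past both its ends. Intervals are 95% Clopper-Pearson. DESeq2 1.42.0 size factors were an alternative. Scripts were tested on simulated data. Genes named were the 10 highest, the 8 with the largest called ratios, those with at least 20% non-coding reads, 10% to 90% exon inclusion or 10% intron retention in a library, and listed cases of interest. Alternative splice sites, reading frames, joint introns and read ends were examined after the other results. The members and lists were chosen with earlier results of these data known.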

Additional observations from a re-analysis of the deposited data

How the results depend on the processing

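Counts of calls kept within 1.5 times of the reported count under all alternatives but 2: with the length trend removed, 11 members were lower in replicate 2 in place of 7, and with annotated models only, 1 member had a lower share of its most read model in replicate 2 in place of 2. Members called higher ranged from 12 (annotated models only) to 20 (total counts, which shifts the median of all genes). DESeq2 size factors gave 15 higher and 7 lower. The pooled non-coding share ranged from 13.8% without replicate 1 to 15.2% without replicate 2, and the share of all reads from 0.347% without replicate 2 to 0.699% without replicate 1. With 2 libraries, leaving 1 out ends every comparison between them. Of the other checks of single genes, exons and introns, 720 kept direction and side of the threshold, 16 gained a call, 11 lost one and 34 changed sign, also where no call had been made.

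Removing the length trend changed the sign of the log2 ratios of Srsf6 (-0.85), Srsf9 (0.49) and Hnrnpa1 (1.14), which had been called, and of Srsf1 (-1.03), Srsf3 (-0.44), Tra2a (-0.76) and Tra2b (-1.09), which had not. Total counts did so for Hnrnph3 (0.00831), Hnrnpr (0.447), Hnrnpul1 (0.463), Srsf10 (0.423) and Rbm39 (0.318). Models with 2 or more exons did so for Srsf1 (-0.0538), Srsf3 (-0.0446) and Clk4 (-0.0346), and annotated models only for Srsf3 (-0.314), Clk4 (-1.16) and Hnrnpr (0.880). With the read-weighted mean length of all models, the length-adjusted log2 ratio changed sign for Clk4 (-0.57), Hnrnph3 (1.302), Hnrnpk (-0.27), Rbm39 (1.12), Srsf2 (0.0961) and Srsf11 (0.0531). With annotated models only, the difference in the share of the most read model, in points, did so for Clk4 (-21.8), Hnrnpr (-0.0535), Srsf1 (-5), Srsf2 (17.3) and Tra2a (-9.09), and exon inclusion for the B1 exon of Hnrnpa2b1 (-1.90), the 83-nt exon of Hnrnpll (-5.72) and the 169-nt exon of Hnrnpr (-0.907). The non-coding share of Hnrnpa2b1 (-2.96, incomplete matches counted) and retention of Srsf5 intron 1 (-4.50, single-exon models included) also changed sign. The cause was not tested. No paired analysis was possible because both libraries belong to 1 group. Members with few reads in replicate 1, such as Srsf7, Hnrnph1 and Hnrnpa3, have wide intervals, and 0 reads allow up to 5.10 CPM in replicate 2.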
